A study of Arabidopsis thaliana with 16 samples.

Results

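A set of 7 genes for transcription factors of the bHLH, homeobox and TCP families was followed along the Arabidopsis thaliana root, on iron-replete and on iron-deficient medium. The rule that chose them uses gene symbols and no measured value: a probe set had to be annotated to 1 gene whose symbol begins with MYB, bHLH, HB, WOX, KNAT, TCP, SPL, BIM, HAT or HDG followed by a number. The rule and its exclusions were set with earlier results of these data known. Of 13513 single-gene probe sets 9 matched, and with BHLH101 and bHLH104 left out 7 remained, each the only probe set of its gene. They were 4 bHLH genes, bHLH34 (AT3G23210), bHLH115 (AT1G51070), bHLH121 (AT3G19860) and BIM1 (AT5G08130), 2 homeobox genes, HAT2 (AT5G47370) and HAT3.1 (AT3G19510), and 1 TCP gene, TCP15 (AT1G69690). No MYB and no SPL symbol was among them. The annotation names 11934 of the 13513 probe sets by locus only. The RefSeq gene table holds 240 genes with such symbols, 120 of them MYB genes, so the rule reaches few members of these families. Of the others only a few were looked at here, among them BHLH101, bHLH104, ILR3 and LHW, and they are not counted with the 7.

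All plants were of the ecotype Columbia, grown on standard medium for 5 days and then moved either to fresh standard medium, which carries Fe(III)-EDTA, or to -Fe medium, in which 0.3 mM of the iron chelator Ferrozine takes the place of the iron salt. Roots were then sectioned by hand: zone 1 is the conical tip of about 150 µm, zone 2 the next 200 µm, which take in the rest of the meristem, zone 3 the following 200 to 300 µm up to where root hairs start, and zone 4 the following 1 mm. Each of the 8 groups (4 zones on 2 media) had 2 arrays, and each array held RNA pooled from about 15 roots. Nothing in the labels says that the pools came from separate cultures, so a p-value here rests on how far the pools of a group differed, which may be technical in part. The sample descriptions put the standard roots at 1 h and the -Fe roots at 24 h after transfer, but by the treatment protocol all roots were taken at 24 h. If the descriptions hold, medium and time since transfer cannot be told apart.

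The bHLH family binds E-box and G-box motifs as dimers, and several of its members form a cascade that plants use when iron is short. bHLH34 and bHLH115, with their close relatives bHLH104 and ILR3, belong to subgroup IVc, whose dimers activate genes of the Ib subgroup such as BHLH101 and also PYE. bHLH121, also called URI, pairs with the IVc proteins. BIM1 has a different role: it binds BES1, the transcription factor at the end of the brassinosteroid pathway, and acts with it on brassinosteroid-induced genes. HAT2 is a class II HD-ZIP protein whose gene is an early auxin-responsive one. HAT3.1 joins a PHD finger, a reader of histone tails, to a homeodomain. TCP15 is a class I TCP protein that acts on cell proliferation and endoreduplication.

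Intensities are MAS5 signal units on a linear scale, and a difference between conditions is given as log2(intensity + 7.73) with its standard error (SE). Each adjusted p comes from limma over all 16505 probe sets that passed a filter on dim signal, with a threshold of 0.05. All 7 genes passed that filter. Median intensity per array lay between 51.3 and 76.0 units, and replicates correlated across probe sets at 0.921 to 0.974. Replicates differed most in zone 3 on standard medium, where the log2 difference between them had an SD of 0.829, and the other 7 groups lay between 0.495 and 0.660. Zone 4 standard replicate 2 stood apart on the 25S ribosomal RNA control, with 348 units against 2953 to 8609 on the other arrays. Without it 3 of the calls below were lost, HAT2 from zone 3 to zone 4 (adjusted p = 0.125) and bHLH121 and TCP15 from zone 2 to zone 4. An RNA quality measure, the 3′ to 5′ signal ratio of a ubiquitin control, was 5.32 to 6.45 over the 4 arrays of zone 1. It was 3.21 to 4.79 in zone 2, then 2.75 to 3.55 in zone 3 and finally 2.64 to 3.21 in zone 4. Other control pairs did not all follow it. An actin pair read 47.5 to 62.2 in zone 1 and 11.6 to 18.2 in zone 4. Another actin pair read 5.54 to 7.19, 3.93 to 5.58, 6.95 to 8.51 and 6.08 to 10.2 in zones 1 to 4. A GAPDH pair lay between 1.40 and 2.17 on all arrays. Another GAPDH pair read 3.55 to 5.48, 2.05 to 2.34, 2.48 to 2.89 and 2.36 to 2.72 in zones 1 to 4. A further ubiquitin pair was also highest in zone 1, at 7.26 to 11.9, with 5.85 to 6.56, 5.04 to 6.49 and 4.34 to 6.06 in zones 2 to 4. The first ubiquitin ratio moves with the steps along the root described below, and the part of RNA quality in them was not tested.

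bHLH115, an activator in the iron cascade, rose from the tip to zone 3. On standard medium its 2 arrays read 104 and 124 units in zone 1, 265 and 155 in zone 2, 1354 and 583 in zone 3, with 872 and 850.5 in zone 4. On -Fe medium they read 174 and 105, 274 and 297, 627 and 702, and 1267 and 1095. All arrays of zones 3 and 4 lay above all arrays of zones 1 and 2 on both media. Averaged over media, with 4 arrays per zone, the gene rose by 1.64 ± 0.26 (log2, SE) from zone 2 to zone 3 (limma, adjusted p = 0.000105). The earlier step from zone 1 to zone 2 was 0.91 ± 0.26 (adjusted p = 0.0112); arrays of the 2 zones overlapped, and the call was lost without zone 2 standard replicate 1 or zone 1 -Fe replicate 2 (adjusted p up to 0.0544). The last step, zone 3 to zone 4, was 0.39 (adjusted p = 0.290). That step turned on 1 pool, since without zone 3 standard replicate 1, the array at 1354 units, it was 0.69 with an adjusted p of 0.0296. Over the whole length the gene was 2.94 ± 0.26 higher in zone 4 than in zone 1 (adjusted p = 3.44e-07). Here as in every result below, the tissue was bulk, so a zone with fewer cells of a type and one with less RNA per cell cannot be told apart.

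bHLH34, its relative in the same subgroup, made a single smaller step. Its standard arrays read 106 and 101 units in zone 1, 114 and 116 in zone 2, 187 and 178 in zone 3, with 147 and 197 in zone 4. On -Fe medium they read 111 and 108, 84.4 and 80.3, 181 and 152, and 143 and 148. Every array of zones 3 and 4 exceeded every array of zones 1 and 2. From zone 2 to zone 3 the gene rose by 0.79 ± 0.15 (log2, SE, 4 against 4 arrays, limma, adjusted p = 0.000577). Neither zones 1 and 2 (-0.12, adjusted p = 0.564) nor zones 3 and 4 (-0.14 on the log2 scale) differed past the threshold.

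bHLH121, the partner of the IVc proteins, passed the test in 1 pair of zones, zones 2 and 4, in the fit without a replicate block. On standard medium it read 203 and 225 units in zone 1, 151 and 170 in zone 2, 190.1 and 257.5 in zone 3, with 236 and 347 in zone 4. On -Fe medium it read 107 and 342, 113 and 249, 219 and 345, and 299 and 356. In each of the 8 groups replicate 2 read above replicate 1. The spread between the -Fe pools of zone 1 was wider than the whole course along the standard root. Zone 2 was lowest and zone 4 highest on both media, and averaged over media those ends differed by 0.87 ± 0.33 (log2, SE, limma, adjusted p = 0.0336). Without any 1 of 6 arrays, the 2 standard arrays of zone 2, both -Fe arrays of zone 4, zone 4 standard replicate 2 and zone 2 -Fe replicate 1, that call was lost (adjusted p up to 0.153), as it was with each array centred on its median (adjusted p = 0.0984). Without zone 1 -Fe replicate 2, the array at 342 units, zones 3 and 4 also exceeded zone 1 (adjusted p = 0.0499 and 0.00821 in place of 0.468 and 0.133). The neighbouring steps were -0.29, 0.57 and 0.30 in order from the tip, none past the threshold in the fit without a replicate block. With a replicate block the step from zone 2 to zone 3 passed (limma, adjusted p = 0.0473).

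BIM1, the brassinosteroid factor, had the widest course on standard medium. Its arrays there read 39.2 and 67.3 units in zone 1, 667 and 419 in zone 2, 356 and 463 in zone 3, with 162 and 94.6 in zone 4. On -Fe medium they read 128 and 56.2, 670 and 529, 502 and 448, and 206 and 221. The signal was low at the tip, high in zones 2 and 3, and intermediate in zone 4, with no overlap between the middle zones and either end. The rise from zone 1 to zone 2 was 2.94 ± 0.27 (log2, SE, limma, adjusted p = 3.28e-05), and the fall from zone 3 to zone 4 was -1.39 ± 0.27 (adjusted p = 0.00255). Zones 2 and 3 were not separated (-0.35, adjusted p = 0.273). Zone 4 was above zone 1 by 1.20 ± 0.27 (adjusted p = 0.00126), although arrays of these 2 zones overlapped.

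HAT2, the auxin-responsive homeobox gene, peaked in zone 2. Its standard arrays read 166 and 261 units in zone 1, 451 and 539 in zone 2, 231 and 370 in zone 3, with 180 and 142 in zone 4. On -Fe medium they read 263 and 185, 585 and 505, 288 and 215, and 216 and 148. Each zone 2 array exceeded every array of the other zones. The gene rose by 1.24 ± 0.22 from zone 1 to zone 2 (log2, SE, limma, adjusted p = 0.000896) and fell by 0.92 ± 0.22 from zone 2 to zone 3 (adjusted p = 0.00278). Arrays of zones 3 and 4 overlapped, and the further fall of -0.65 ± 0.22 had an adjusted p of 0.0452. That last call was lost (adjusted p up to 0.169) without any single array other than the zone 1 arrays, zone 3 standard replicate 1 and zone 4 -Fe replicate 1, which makes 10 of 16. Zones 1 and 4 were not told apart (-0.33, adjusted p = 0.194).

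HAT3.1, the PHD-finger homeodomain gene, ran the other way and was highest in the tip. On standard medium it read 299 and 223 units in zone 1, 146 and 189 in zone 2, 50.5 and 49.9 in zone 3, with 63.1 and 59.2 in zone 4. On -Fe medium it read 187 and 176, 200.1 and 106, 45.2 and 61.6, and 73.4 and 85.7. The arrays of zones 1 and 2 all lay above those of zones 3 and 4. Its fall from zone 2 to zone 3 was -1.46 ± 0.21 (log2, SE, limma, adjusted p = 6.07e-05). Between zones 1 and 2 the difference of -0.46 did not pass (adjusted p = 0.0936), but did without zone 2 -Fe replicate 1, the array at 200.1 units (adjusted p = 0.0221). From zone 3 to zone 4 it was 0.39 (adjusted p = 0.200).

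TCP15, the class I TCP gene, was dim at the tip. Its standard arrays read 25.4 and 21.4 units in zone 1, 74.3 and 75.0 in zone 2, 41.0 and 92.8 in zone 3, with 58.6 and 36.6 in zone 4. On -Fe medium they read 32.7 and 10.2, 116 and 58.5, 121 and 71.5, and 37.0 and 38.4. The zone 1 signals lay at percentiles from 24.4 to 40.3 of their arrays, where the offset understates a change, and all of them were below every array of the other zones. The gene rose by 1.58 ± 0.33 from zone 1 to zone 2 (log2, SE, limma, adjusted p = 0.00215), and zones 2 and 3 were not told apart (-0.04, 95% interval -0.75 to 0.67). From zone 3 to zone 4 it gave -0.76 (adjusted p = 0.105), which became -1.02 with an adjusted p of 0.0341 without zone 3 standard replicate 1. It fell by 0.80 from zone 2 to zone 4 (adjusted p = 0.0457), and zone 4 was above zone 1 by 0.78 (adjusted p = 0.0462). Each of these last 2 calls was lost without the filter on dim probe sets, and without any 1 of 8 arrays (adjusted p up to 0.182 and 0.203). For zone 2 to zone 4 these were the zone 2 standard arrays, zone 2 -Fe replicate 1, the zone 1 standard arrays, zone 4 standard replicate 2 and both zone 4 -Fe arrays. For zone 1 to zone 4 they were the zone 1 and zone 2 standard arrays, zone 1 -Fe replicate 2, zone 4 standard replicate 1 and both zone 4 -Fe arrays.

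**Figure D1:**
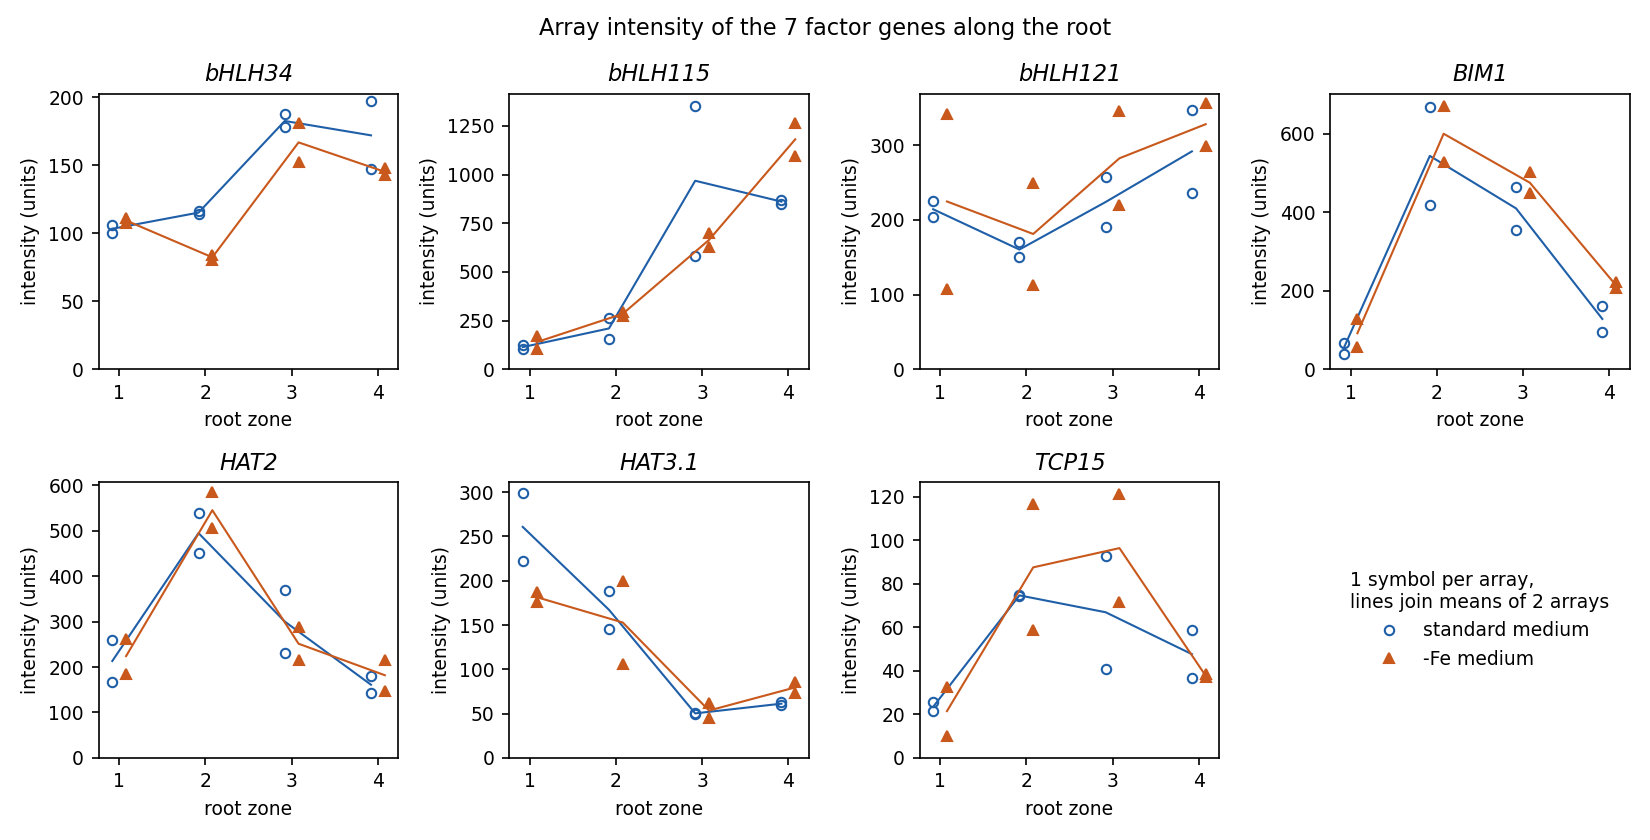
MAS5 intensity (units, linear axis from 0) of each gene against root zone, with 1 symbol per array, open circles for standard and triangles for -Fe medium, and lines through the means of 2 arrays. HAT2 peaks in zone 2, BIM1 is high in zones 2 and 3, and HAT3.1 is higher in zones 1 and 2 than in zones 3 and 4. bHLH115 and bHLH34 are higher in zones 3 and 4 than in zones 1 and 2, and the symbols of both media follow each other.

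In terms of the zones, 4 of the 7 genes rose from the tip into zone 2 (BIM1, TCP15, HAT2 and bHLH115) and none fell past the threshold. In that step 46.6% of all probe sets tested were called, 20.4% higher and 26.1% lower, and the median difference was 0.91 over the 7 genes and -0.11 over all. At the end of the meristem, from zone 2 to zone 3, the homeobox genes fell and the IVc genes bHLH115 and bHLH34 rose, again 4 of 7, against 64.6% of all probe sets (29.7% higher and 34.9% lower). That count of 4 in 7 is near the background. From zone 3 to zone 4 BIM1 and HAT2 were called, both lower, against 28.1% of all (14.4% higher and 13.7% lower). This last count was 4 without zone 3 standard replicate 1 and 1, BIM1, without any of the 10 arrays on which the HAT2 call rests. Each called step had the same sign on both media, but not every one passed the threshold on each medium alone. On standard medium bHLH115 from zone 1 to zone 2 (limma, adjusted p = 0.130) and HAT2 from zone 2 to zone 3 (0.0673) did not pass. From zone 3 to zone 4 BIM1 did not pass on -Fe medium (0.0651), and HAT2 passed on neither (0.111 on standard and 0.374 on -Fe). From zone 1 to zone 2 the difference on standard and on -Fe medium was 3.18 and 2.70 for BIM1, 1.21 and 1.27 for HAT2, 1.40 and 1.75 for TCP15, and 0.80 and 1.03 for bHLH115. From zone 2 to zone 3 it was 2.09 and 1.20 for bHLH115, 0.63 and 0.95 for bHLH34, -0.74 and -1.11 for HAT2, and -1.58 and -1.34 for HAT3.1. The fall from zone 3 to zone 4 was -1.65 and -1.12 for BIM1 and -0.84 and -0.46 for HAT2.

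**Figure D2:**
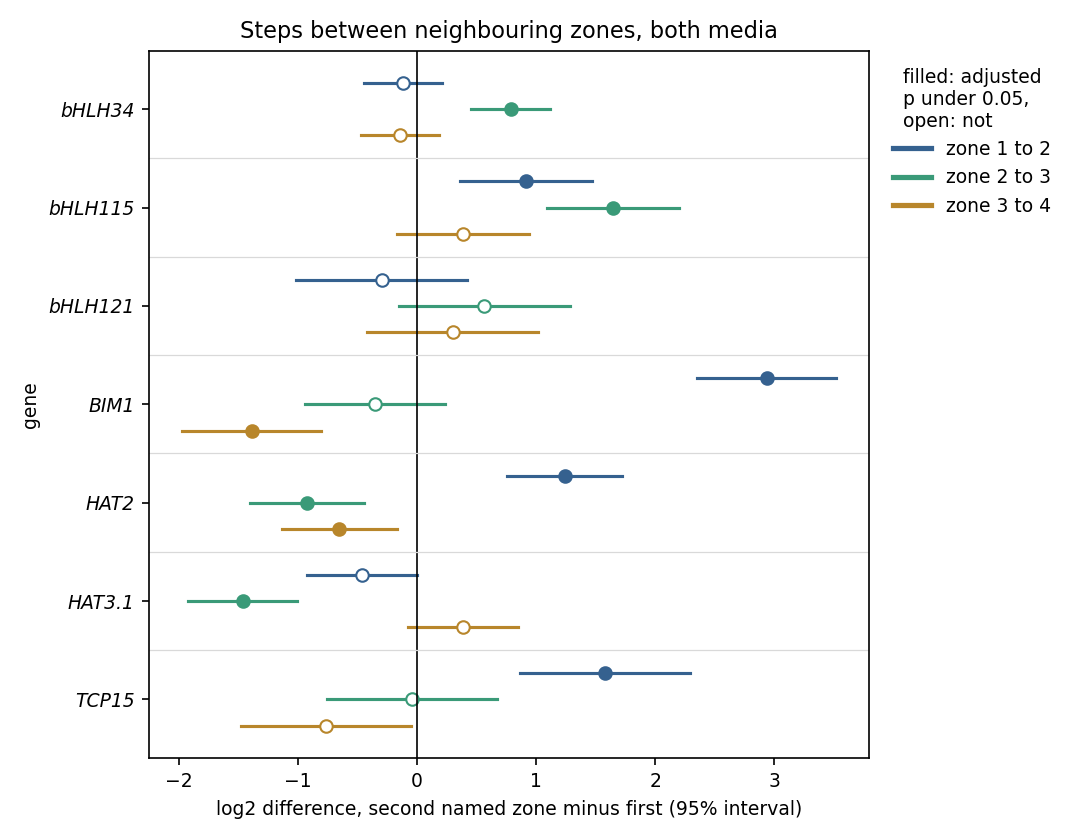
Log2 difference (x axis) between neighbouring zones for each gene (y axis), averaged over both media, with the 95% interval as a bar and a filled point where the adjusted p is under 0.05. BIM1 has the widest step, 2.94 from zone 1 to zone 2, while in the zone 2 to zone 3 step bHLH115 and bHLH34 lie to the right of 0 and HAT2 and HAT3.1 to the left.

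Pairs of zones that are not neighbours were added once the steps had been seen. From zone 1 to zone 3, 5 of 7 genes were called (74.0% of all probe sets), with bHLH115 up by 2.56, BIM1 by 2.59, TCP15 by 1.54 and bHLH34 by 0.67 on the log2 scale, and HAT3.1 at -1.92. Between zones 2 and 4 all 7 passed (68.0% of all), 3 bHLH genes of the iron cascade higher and BIM1, HAT2, HAT3.1 and TCP15 lower in zone 4. Zone 1 against zone 4 gave 5 of 7 (75.9% of all), with HAT3.1 at -1.53 the one that was lower in zone 4.

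An F test over the 4 zones was passed by 5 of the 7 genes on standard medium, against 73.7% of all probe sets, and by 6 on -Fe medium, against 77.4%. bHLH121 passed on neither (adjusted p = 0.455 and 0.249), and TCP15 only on -Fe medium (adjusted p = 0.0633 on standard and 0.00665 on -Fe). TCP15 also passed on standard medium without zone 3 standard replicate 1 or either zone 1 -Fe array (adjusted p down to 0.0243), and bHLH121 passed on -Fe medium without zone 1 -Fe replicate 2 (adjusted p = 0.0232). bHLH34 did not pass on standard medium when only the standard arrays were fitted (adjusted p = 0.0724). The range of group means along the root went from 0.78 (bHLH34) to 3.18 (BIM1) on standard medium and from 0.93 (bHLH121) to 3.05 (bHLH115) on -Fe medium, in log2 units. Its median was 1.58 on standard and 1.64 on -Fe medium, against 1.64 and 1.74 over all probe sets tested. The zone with the highest mean was the same on both media for 5 of the 7 (71.4%, against 80.4% of all), the exceptions being TCP15 (zone 2 on standard, zone 3 on -Fe) and bHLH115 (zone 3 on standard, zone 4 on -Fe). For bHLH115 the arrays of zones 3 and 4 did not overlap on -Fe medium (0.82 on the log2 scale), with an adjusted p of 0.150 over all 16 arrays and of 0.0364 when only the groups compared were fitted.

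Marker genes of tissue types were measured by name only in part. Of the dividing-cell list, 3 of 20 genes were measured, the Aurora kinases AUR1, AUR2 and AUR3, and all 3 fell from zone 1 to zone 2. AUR1 and AUR3 also fell from zone 2 to zone 3, whereas AUR1 and AUR2 rose from zone 3 to zone 4. The summed intensity of all 3 was 1719 to 2018 units per array in zone 1, 519.6 to 961 in zone 2, 212 to 364 in zone 3 and 469.9 to 628 in zone 4. For elongating cells 5 of 7 markers were measured, of which 4 rose from zone 1 to zone 2 and 4 from zone 2 to zone 3, while 3 fell from zone 3 to zone 4. They summed to 679.9 to 1225, 2087 to 3388, 5635 to 7612 and 2054 to 3327 units in zones 1 to 4. The 3 measured of 8 root hair markers rose from zone 2 to zone 3. The expansin gene EXPA7 rose by 5.57. Zone 2 readings of EXPA18, also an expansin gene, ran from 1.70 to 248 units. Some lie under the offset, so no log2 difference is given. The 3 summed to between 1046 and 1806 units in zone 2 and between 8469 and 11608 in zone 3. SCN1 made up most of the zone 2 sum, and it also rose from zone 1 to zone 2 and fell from zone 3 to zone 4. The standard pools of zone 2 differed. Replicates 1 and 2 read 397 and 31.1 units for EXPA7, and 301 and 41.0 for the elongation marker XTH18. SCN1 read 1161 and 1125 there. What made the pools differ was not tested. The 3 measured of 5 lateral root markers, LBD16, LBD29 and PUCHI, rose from zone 2 to zone 3. Their sums lay between 23.4 and 44.5 units in zone 2 and between 103 and 273 in zone 3. None of 5 root cap and 7 endodermis markers was measured by name. How far cell composition enters the courses of the 7 factor genes was not tested.

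Other lists around these families were thinly covered. Of 18 vascular and stem cell niche regulators 5 were tested. BBM, an AP2-type factor of the stem cell niche, fell from between 87.8 and 196 units in zone 1 to between 0.614 and 17.6 units in zone 2. The receptor kinase gene ACR4 (listed as CR4) fell from between 28.4 and 44.0 units in zone 2 to between 1.15 and 4.93 units in zone 3. The lower readings of both lie about or under the offset of 7.73, which then sets the size of the log2 difference, so none is given. LHW, a bHLH factor of vascular development, fell by 1.28 from zone 2 to zone 3 on the log2 scale, while JKD and PHV were called in no step. TRY, the only 1 of 21 epidermal regulators measured, was not called. From flavonol synthesis 2 of 10 genes were measured: the glycosyltransferase gene UGT78D2 rose from zone 1 to zone 2 (0.89) and from zone 3 to zone 4 (1.24), and UGT78D1 fell in the first of these steps, with zone 2 readings from 1.70 to 60.8 units. From glucosinolate synthesis 2 of 13 were measured, of which UGT74B1 rose from zone 2 to zone 3 (0.82, adjusted p = 0.0454) and BCAT4 was called in no step. The xylem list gave 1 of 12, GUT2, a xylan synthesis gene also known as IRX10, up by 2.11 from zone 2 to zone 3, and none of 7 brassinosteroid signalling genes was measured by name.

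Between media none of the 7 factor genes passed the threshold. In limma 0 of 7 were called in zone 1 (0.109% of all probe sets were called there), zone 2 (0.103%), zone 3 (0.291%) or zone 4 (0.927%), and 0 of 7 in the average over zones (1.41%). At an unadjusted p under 0.05 there were 0 among the 28 gene-by-zone differences and 1 among the averages, BIM1. The share of all probe sets at that unadjusted level was not counted, so these counts have no background beside them. With so few calls at the adjusted threshold over the whole array, a count of 0 called among 7 is near the background. Of the matching genes left out by name, BHLH101 did pass in the average over zones, as given below.

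BIM1 came nearest to a medium difference. Its mean was higher on -Fe medium in 4 of 4 zones, for example 213 ± 10.8 against 128 ± 47.5 units (SD, n = 2 arrays each) in zone 4, where the arrays did not overlap. Averaged over zones the difference was 0.45 ± 0.19 (log2, SE, 8 against 8 arrays), with a 95% interval from 0.03 to 0.86 and an adjusted p of 0.304 by limma. In zones 1, 2 and 3 its arrays overlapped between media.

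The bHLH genes of the iron cascade likewise did not pass. bHLH115 averaged 0.19 (95% interval -0.21 to 0.58), bHLH121 0.10 (-0.41 to 0.61) and bHLH34 -0.18 (-0.41 to 0.05). For bHLH34 zone 2 gave 84.4 and 80.3 units on -Fe medium against 114 and 116 (-0.45, unadjusted p = 0.0585). With each array centred on its median, the bHLH34 difference was -0.26 in zone 2 and -0.05 on average, and in zone 3 it turned from -0.13 to 0.02. These intervals leave room for changes of moderate size: over the 28 zone differences they reached from -1.26 to 1.57, and over the 7 averages from -0.45 to 0.86.

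BHLH101 and PYE are genes on which the IVc factors are known to act. BHLH101 read 0.970 to 13.9 units on the 8 standard arrays and 59.2 to 1265 on the 8 -Fe arrays (averaged over zones, adjusted p = 7.04e-07), and its standard readings lie about the offset, so no fold is given. The averaged medium difference was 1.53 ± 0.17 for PYE (adjusted p = 0.000257), and -0.02 ± 0.12 for bHLH104 and 0.15 ± 0.12 for ILR3, the other IVc genes (adjusted p = 0.963 and 0.627). Along the root bHLH104 rose from zone 2 to zone 3 (1.05, adjusted p = 0.000172) and from zone 3 to zone 4 (0.71, adjusted p = 0.00887), whereas ILR3 rose in the latter step only among the 3 neighbouring ones (0.75, adjusted p = 0.00645).

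HAT2, HAT3.1 and TCP15 averaged 0.04, -0.07 and 0.05 between media, and HAT3.1 turned to 0.06 with each array centred on its median. Counting arrays alone, 7 of the 28 gene-by-zone comparisons had no overlap between media, 5 higher and 2 lower on -Fe medium, against 34.2% of all comparisons of this kind (14.4% higher and 19.7% lower). The dependence of the medium difference on the zone was tested by an interaction, which called 0 of 7 genes in limma (0.121% of all probe sets). The lowest unadjusted p of that interaction was 0.292, for HAT3.1.

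**Figure D3:**
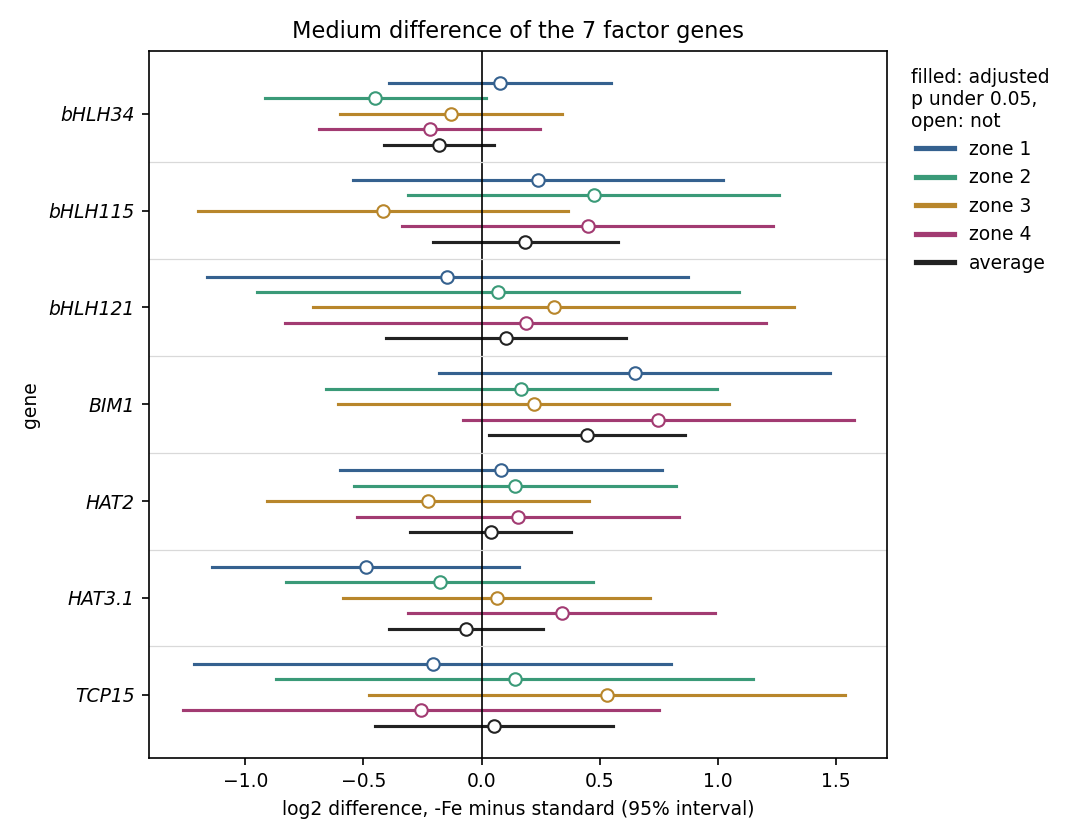
Log2 difference between -Fe and standard medium (x axis) for each gene (y axis) in each zone and averaged, with 95% intervals as bars. All points are open, since none passed the threshold, and the averaged interval of BIM1 (0.03 to 0.86) is the one average that lies to the right of 0.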

How the data were processed

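Root RNA was hybridised to 16 Affymetrix arrays. Per the labels' protocols it had been amplified in the two-cycle procedure. The deposited values are array intensities on a linear scale (0.0213 to 17169), made with MAS5 per the submitters' processing notes; detection calls were not used here. After leaving out 64 control probe sets, log2(intensity + 7.73) was taken of 22746, the offset being their 20th percentile. The 16505 above their array's 40th percentile on at least 2 arrays were tested with limma 3.58.1 (R 4.3.3), with 8 group means, 8 residual degrees of freedom, an intensity trend and Benjamini-Hochberg adjustment within each contrast. Zone steps average both media. The fit was tested on simulated data with independent noise. Recovery of the largest simulated differences was required for a zone step, the F test on standard medium and the averaged medium difference. It was not required for the medium difference within a zone.

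Members and lists were chosen with earlier results of these data known. Named genes are all 7 members and up to 6 measured genes of each list. CHI is a chitinase gene in this annotation and was left out of the flavonol list. Related IVc factors and their targets, and zone pairs other than neighbours, were added after seeing the data. The files name no genome build, and neither coordinates nor sequences were used here. The labels do not say that replicate numbers mark a shared batch. Deviations of same-numbered arrays correlated at -0.126 to 0.465 over 28 pairs of groups, above 0.1 in 15 of them and at 0.180 to 0.370 between the media of 1 zone. Since not every pair was above 0.1, the numbers were not taken as a pairing, but these values do not exclude a batch shared by some arrays. The number of arrays limits the precision. Other scalings, filters, offsets and fits, and leaving out each array, were tried.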

Additional observations from a re-analysis of the deposited data

Results flagged for a closer look

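In a pair of genes the arrays of the media separated in opposite directions in different zones. HAT3.1 was lower on -Fe medium in zone 1 (-0.49 on the log2 scale, 187 and 176 against 299 and 223 units) and higher in zone 4 (0.34, 73.4 and 85.7 against 63.1 and 59.2 units). The limma interaction of medium and zone gave an unadjusted p of 0.292 for it. For bHLH34 the arrays were higher on -Fe medium in zone 1 (0.077, 111 and 108 against 106 and 101 units) and lower in zone 2 (-0.45, 84.4 and 80.3 against 114 and 116 units), with an unadjusted interaction p of 0.416. Both adjusted p-values were 1.00. With 2 arrays a group, arrays of the media did not overlap in 30.6% of all probe sets in zone 1 and 34.1% in zone 2. In zones 3 and 4 these shares were 28.7% and 43.3%. The share of all probe sets that separate in opposite directions in different zones was not counted. The pair of genes can therefore not be set against a background, and no result about these genes is read from it.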

How the results depend on the processing

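The 10 other settings and the omission of each of the 16 arrays were applied to 182 results of single genes. Of 4718 resulting values 4551 stayed on their side of the threshold, 133 lost a call, 34 gained one and 0 called values changed sign. The count of 2 genes called from zone 3 to zone 4 became 1 (HAT2 lost) with no filter on dim probe sets, with array weights, with no intensity trend and with only the groups compared in the fit. Leaving out single arrays moved the counts from 5 to between 5 and 6 (F test, standard medium), from 6 to between 6 and 7 (F test, -Fe medium), from 4 to between 3 and 5 (zone 1 to 2) and from 2 to between 1 and 4 (zone 3 to 4), the last being 4 without zone 3 standard replicate 1. It left 4 in the zone 2 to zone 3 step and 0 in each medium comparison and in the interaction. For zone 1 to 3 the range was 5 to 6, for zone 2 to 4 5 to 7 and for zone 1 to 4 4 to 5. Fitting only the groups compared gave no separate value for the averaged medium difference or the interaction, which use all arrays. Median centring moved the median of all probe sets from -0.11 to 0.10 in the zone 1 to zone 2 step and from -0.06 to 0.12 in the zone 2 medium difference, and there the small uncalled difference of bHLH34 between zones 1 and 2 became 0.09. The replicate numbers were not taken as a pairing, though the media of each zone correlated by number. A replicate block added calls of bHLH121 from zone 2 to zone 3 (limma, adjusted p = 0.0473 in place of 0.151) and from zone 1 to zone 4 (0.0394 in place of 0.133). It also added the call of bHLH121 from zone 2 to zone 4 on -Fe medium (0.0289 in place of 0.110). The block left 0 of 7 in each medium comparison and in the interaction. Shares of all probe sets called with the block are not given here.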
